A study of Mus musculus with 18 samples.

Results

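Epithelial ion transport genes were taken as the 9 genes whose symbols were Cftr, Slc12a2, Slc26a3, Slc26a6, Slc9a2, Slc9a3, Kcnq1, Kcne3 and Kcnk6, which carry chloride, bicarbonate, sodium and potassium across gut epithelium. All 9 were listed at each time, among 17759 genes in the crypt table, 17423 in the day 1 table and 17612 in the day 3 table, and all 9 passed the filter for testing, a mean of at least 10 normalized counts. RNA came from duodenal crypts of 3 WT mice (Mtgr1+/+) and 3 Mtgr1-/- mice, a constitutive, whole-body deletion, and from enteroids grown from the same crypts in Matrigel under ENR medium (EGF, Noggin and R-spondin) for 24 h (day 1) or 72 h (day 3). The mice were male and female littermates, 8 to 12 weeks old where an age was given. Each mouse gave 1 bulk library at each time, 18 in all, so that every group held 3 libraries.

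Gut epithelium absorbs salt through apical exchangers that work in pairs, sodium for protons and chloride for bicarbonate, and it secretes fluid by moving chloride into the lumen. Secretion needs an apical chloride channel, CFTR, a basolateral cotransporter that loads the cell with chloride, and basolateral potassium channels that recycle potassium and keep the cell negative. Absorptive exchangers are known mainly from villus enterocytes, whereas the secretory set is known mainly from crypts.

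Depth was similar, with 22035316 to 28621990 reads recovered in each of the 16 libraries where recovered reads were used. Mtgr1 is listed as Cbfa2t2, and its log2 fold change, labelled Mtgr1-/- over WT, was -0.05 in crypts, 0.37 at day 1 and 0.06 at day 3 (adjusted p = 0.917, 0.0557 and 0.686, limma). The targeted gene was therefore not lower in the libraries labelled Mtgr1-/-, but a value per gene does not show which exons were read and so does not check the deletion. Every direction given here rests on the labels. The libraries did stand apart by label in other genes. Olfm4, a stem cell marker, was at 25673.3 to 33031.9 normalized counts in WT crypts against 133 to 512 in crypts labelled Mtgr1-/-, and its groups lay apart at day 1 and day 3 too. Pan-epithelial markers were high in all 18 libraries (summed level 107830.3 to 323083.7 normalized counts over 6 genes). Summed stromal and endothelial markers each stayed at or below 202.6. Summed immune markers were mostly Cd74, which epithelium also expresses. They spanned 34201.9 to 38233.6 in WT crypts against 3197.5 to 6389.1 in crypts labelled Mtgr1-/-. The sums were 4567.6 to 7325.5 against 456 to 1721.7 at day 1, and 812 to 1703.8 against 119 to 2355.7 at day 3. Leukocyte markers were uneven among WT crypts, with Ptprc at 377 to 3795.2 and Cd3e at 137 to 1162.6. In crypts labelled Mtgr1-/- they were at 144 to 450 and 27.6 to 107. The part of immune cells in crypt differences was not tested.

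On GRCm38, with identifiers as deposited and gene positions from GENCODE M21, the absorptive exchangers were Slc26a3 (ENSMUSG00000001225.12, chr12:31390871-31473917), Slc26a6 (ENSMUSG00000023259.16, chr9:108853283-108913049), Slc9a3 (ENSMUSG00000036123.8, chr13:74121457-74169442) and Slc9a2 (ENSMUSG00000026062.12, chr1:40680574-40769273), all on the plus strand. The secretory set was Cftr (ENSMUSG00000041301.15, chr6:18170687-18322768), Slc12a2 (ENSMUSG00000024597.11), Kcnq1 (ENSMUSG00000009545.14, chr7:143106362-143427042) and Kcne3 (ENSMUSG00000035165.14, chr7:100176502-100184869), also on the plus strand. Kcnk6 (ENSMUSG00000046410.10, chr7:29221926-29232515), a channel of the K2P potassium family, lies on the minus strand. Kcnq1 and Kcne3 overlap antisense genes that the tables also list, and strand settings of the counting are not given in the sources used here.

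RefSeq promoter windows of GRCm38.p6, the 250 bases before each start, were matched for 5 of the 9 genes. They are shown for the 4 of these that differed between genotypes in enteroids, 3 absorptive exchangers that were higher and 1 potassium channel subunit that was lower, so that genes moving apart can be read side by side. Capitals mark CAGGTG, an E-box of the kind bound by E proteins, with which MTG corepressors are known to associate. The windows are 5′ to 3′ on the plus strand, at chr12:31437969-31438218 for Slc26a3, chr9:108853793-108854042 for Slc26a6, chr13:74121163-74121412 for Slc9a3 and chr7:100178433-100178682 for Kcne3, which has 2 windows, the downstream one being shown.
Slc26a3: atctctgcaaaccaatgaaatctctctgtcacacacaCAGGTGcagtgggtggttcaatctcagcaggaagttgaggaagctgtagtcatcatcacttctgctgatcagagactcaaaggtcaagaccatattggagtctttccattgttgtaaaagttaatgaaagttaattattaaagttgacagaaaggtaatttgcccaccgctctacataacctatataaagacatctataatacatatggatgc
Slc26a6: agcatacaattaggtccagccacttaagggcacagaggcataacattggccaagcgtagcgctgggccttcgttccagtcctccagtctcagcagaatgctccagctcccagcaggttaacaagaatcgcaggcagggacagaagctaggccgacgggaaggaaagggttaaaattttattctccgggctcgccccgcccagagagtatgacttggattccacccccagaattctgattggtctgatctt
Slc9a3: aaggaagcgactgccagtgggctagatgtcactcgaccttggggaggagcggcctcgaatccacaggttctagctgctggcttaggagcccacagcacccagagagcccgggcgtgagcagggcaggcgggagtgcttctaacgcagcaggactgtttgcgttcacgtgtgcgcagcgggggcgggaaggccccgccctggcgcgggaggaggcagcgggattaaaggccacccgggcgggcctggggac
Kcne3: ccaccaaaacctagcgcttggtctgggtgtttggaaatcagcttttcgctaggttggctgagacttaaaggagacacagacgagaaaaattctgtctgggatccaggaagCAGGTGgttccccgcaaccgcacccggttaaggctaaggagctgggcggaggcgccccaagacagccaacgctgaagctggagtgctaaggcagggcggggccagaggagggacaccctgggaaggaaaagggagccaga
CAGGTG was searched on both strands and was found once in the Slc26a3 window, its first base 213 bases before the start, and once in the downstream Kcne3 window, 140 bases before the start, but not in the upstream Kcne3 window (chr7:100176420-100176669). It was in 17.2% of all 32851 windows. The same letters were in windows of a gene that was higher and of a gene that was lower. TTTATGG, a CDX motif in 2.43% of all windows, and CTTTGAA, a TCF motif in 4.46%, were in none of the windows of the 5 genes, nor were the HNF4 motif CAAAGTCCA (0.384%) and the palindromic HNF1 motif (0.00913%). Only exact matches were counted, so near matches were not looked for. The HNF1 motif was in only 3 of all 32851 windows, so not finding it says little. The Cftr window was 76.4% G and C and the Slc26a3 window 38.8%.

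In crypts, 2 of the 9 genes passed the test, Cftr higher and Kcnk6 lower in the libraries labelled Mtgr1-/- (adjusted p below 0.05, limma over all genes), beside 4.73% of the 12980 genes tested, 1.58% higher and 3.15% lower. In enteroids most of the genes passed, in both directions. At day 1, 7 of 9 passed, 3 absorptive exchangers higher and 4 genes lower (the cotransporter Slc12a2 and the potassium channel genes Kcnq1, Kcne3 and Kcnk6), beside 58.9% of 12587 genes (30% higher, 28.9% lower). At day 3, 8 of 9 passed, all 4 absorptive exchangers and Kcnk6 higher and Slc12a2, Kcnq1 and Kcne3 lower, beside 59% of 12782 genes (29.9% higher, 29.1% lower). The groups did not overlap for 5 of the 9 in crypts (25.5% of all tested genes), for 7 at day 1 (68.1%, of which 34.2% higher and 33.9% lower) and for 8 at day 3 (68.8%, of which 34.6% higher and 34.2% lower). Counts of 9 genes are to be read against these shares, and nothing particular to the 9 is drawn from them. The median absolute log2 fold change of the 9 genes was 0.61 in crypts, 1.37 at day 1 and 1.00 at day 3, against 0.18, 0.51 and 0.44 over all genes tested. The 9 genes were chosen with earlier results of these data known, so nothing is drawn from these medians either. These bulk values cannot tell fewer cells of a type from less RNA per cell.

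**Figure D1:**
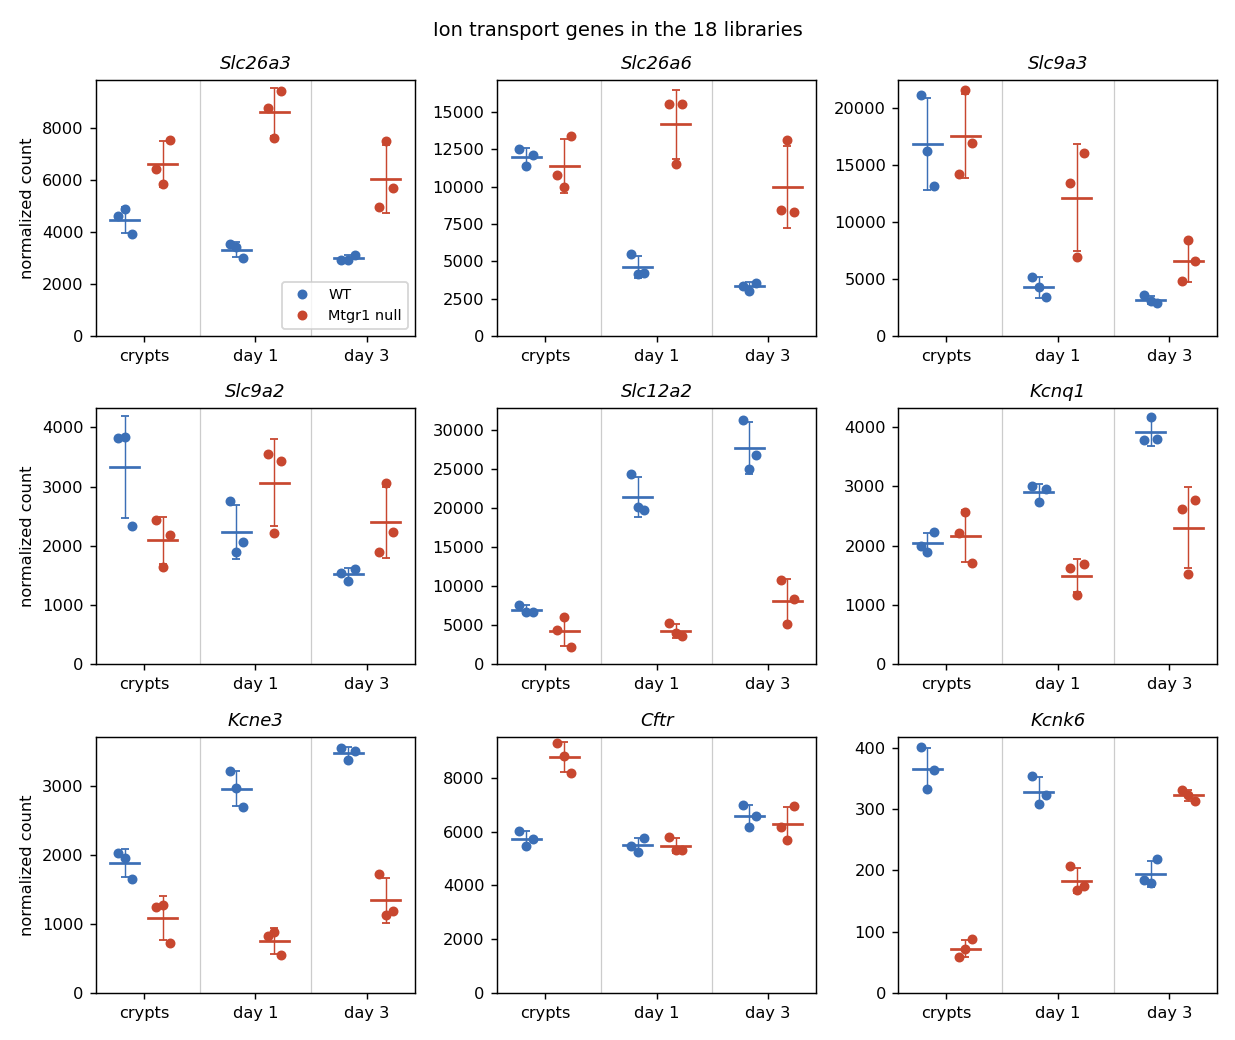
Normalized counts of the 9 ion transport genes (vertical axis, linear, from 0) in crypts, day 1 and day 3 enteroids of WT mice and of mice labelled Mtgr1 null. Points are libraries, lines are means and bars are 1 SD (n = 3). Slc26a3, Slc26a6 and Slc9a3 stand above WT in both enteroid stages and Slc12a2, Kcnq1 and Kcne3 below it, while Cftr stands apart in crypts only. Tables of different times were normalized separately.

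Slc26a3, the chloride/bicarbonate exchanger also known as DRA, was at 3548, 3429 and 2980.3 normalized counts in WT mice 1, 2 and 3 at day 1 and at 8758, 7606 and 9428 in those labelled Mtgr1-/-. The groups did not overlap, and the difference was 2.59-fold (log2 1.37, SE 0.11, adjusted p = 0.000126, limma). At day 3 its counts were 2923, 2903 and 3122 in WT against 4953, 7492 and 5697 in the others, 2.00-fold higher (log2 1.00, SE 0.14, adjusted p = 0.000693, limma). In crypts the groups also lay apart, at 4621, 4874 and 3903 against 6437, 5827 and 7553. That difference (log2 0.56, 95% interval 0.25 to 0.88) did not pass (adjusted p = 0.0661, limma), although it did after quantile normalization (adjusted p = 0.043), with array weights (0.00633) and in DESeq2 on recovered reads (0.00611).

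Slc26a6, the apical exchanger also called PAT1, which carries chloride, bicarbonate and oxalate, showed the largest rise of the 9 genes at day 1 and at day 3. Crypt values overlapped, at 12507, 11403 and 12082 in WT and 10739.8, 9973 and 13409 in libraries labelled Mtgr1-/- (log2 -0.09, 95% interval -0.40 to 0.23). At day 1 it was at 5492, 4161 and 4216 in WT against 15508, 11505 and 15495 in the others. Every labelled Mtgr1-/- value was above every WT value, 3.06-fold on the fitted scale (log2 1.61, SE 0.16, adjusted p = 0.000238, limma). At day 3 it was at 3360.1, 3037 and 3559 against 8440.0, 13127 and 8276, 2.93-fold higher (log2 1.55, SE 0.17, adjusted p = 0.000218, limma).

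Slc9a3, which encodes the sodium/proton exchanger NHE3 of the brush border, varied more among mice. Its day 1 counts were 5205, 4254 and 3372 in WT and 13442, 6951 and 15995 in libraries labelled Mtgr1-/-, without overlap. It was 2.71-fold higher, with mouse 2 nearest to WT (log2 1.44, SE 0.30, adjusted p = 0.00467, limma). At day 3 it was at 3547, 3058 and 2878 against 4774, 8431 and 6588, a 2.04-fold rise (log2 1.03, SE 0.19, adjusted p = 0.00234, limma), and here mouse 2 was farthest from WT. Crypt values spanned 13116 to 21143 in WT and 14198 to 21512 in the others and overlapped throughout (log2 0.07, 95% interval -0.46 to 0.59).

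Slc9a2, which encodes NHE2, another apical sodium/proton exchanger, had the smallest difference of the 4 absorptive genes at day 1 and at day 3, though not in crypts. At day 3 it was at 1543, 1400.1 and 1616 in WT and 1900.1, 3053 and 2232 in libraries labelled Mtgr1-/-, 1.55-fold higher without overlap (log2 0.63, SE 0.16, adjusted p = 0.0106, limma). At day 1 the groups overlapped, at 2755, 1895 and 2065 against 3542, 2219.9 and 3430.1, and the difference did not pass (log2 0.44, 95% interval -0.04 to 0.92, adjusted p = 0.101, limma). With the replicate block, that is with mice of the same number paired, it passed (log2 0.44, adjusted p = 0.017, limma), and it also passed without mouse 2 labelled Mtgr1-/- (log2 0.66, adjusted p = 0.00694, limma). In all, 3 of 16 alternatives gained this call. In crypts it was at 3810.2, 3827 and 2333 against 2440.3, 1649 and 2182 (log2 -0.65, 95% interval -1.20 to -0.10, adjusted p = 0.192, limma). There it passed as lower without WT mouse 3 (log2 -0.89, adjusted p = 0.0478, limma) and with array weights (log2 -0.76, adjusted p = 0.00864, limma).

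Markers of enterocytes moved with these exchangers. Of 10 enterocyte markers, 9 were higher at day 1 and 9 at day 3 in the libraries labelled Mtgr1-/-. The other, at day 1, was Sis, a brush border disaccharidase gene, which was lower (101780.9 to 138314.5 in WT against 9489.0 to 34650.7). The summed level of the 10 was 394902 to 513247.6 normalized counts in WT against 754693.9 to 1129227 at day 1, and 327428.4 to 358777.1 against 583930.7 to 1089283.7 at day 3. In crypts, where none of the 10 was higher and 2 were lower, the sums were 661661 to 818560.8 in WT and 398765.7 to 708761.7 in the others. Of 5 genes known to respond to dissociation stress, 4 were higher and 1 lower at day 3 (sums 2088.3 to 2370.9 in WT against 2949.1 to 3356.1), 1 was higher and 1 lower at day 1, and none passed in crypts. The part of these cells and of stress in the differences of the exchangers was not tested.

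Slc12a2, which encodes NKCC1, the basolateral cotransporter that loads cells with sodium, potassium and chloride, had the largest difference of the 9 genes in enteroids. At day 1 it was at 24293, 20132 and 19761 normalized counts in WT and 5332, 4026 and 3590.1 in libraries labelled Mtgr1-/-. The groups were far apart, 5.0-fold (log2 -2.32, SE 0.16, adjusted p = 7.48e-05, limma). Day 3 counts stood at 31287, 24941 and 26712 against 10818, 5112 and 8393, 3.55-fold lower (log2 -1.83, SE 0.25, adjusted p = 0.000533, limma). In crypts they were 7657, 6673 and 6719 against 4382, 6033 and 2289.9. All 3 crypts labelled Mtgr1-/- were below WT, but they spread widely, and the difference did not pass (log2 -0.83, 95% interval -1.60 to -0.07, adjusted p = 0.232, limma). It passed with array weights (log2 -0.91, adjusted p = 0.0231), and it was -0.45 without mouse 3 labelled Mtgr1-/- and -1.14 without mouse 2.

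KCNQ1 and KCNE3 together form a basolateral potassium channel of crypt cells, KCNQ1 as the pore and KCNE3 as the subunit that keeps it open. Kcne3 was at 3212, 2969 and 2700.3 in WT at day 1 and at 827, 886 and 544 in libraries labelled Mtgr1-/-, 4.01-fold lower without overlap (log2 -2.0, SE 0.18, adjusted p = 0.000187, limma). At day 3 it was at 3547, 3384 and 3505 against 1717, 1125 and 1185, 2.64-fold lower (log2 -1.40, SE 0.15, adjusted p = 0.000185, limma). Crypt values were 2033, 1958 and 1658 against 1251, 1280.3 and 723, again without overlap. That difference did not pass (log2 -0.84, 95% interval -1.38 to -0.30, adjusted p = 0.098, limma), though it did with the mouse number as a replicate block (adjusted p = 0.0423, limma) and with array weights (0.00847).

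Kcnq1, the pore gene, differed less than its subunit. In crypts the groups overlapped, at 1991, 1901 and 2235 in WT and 2209.6, 2572 and 1702 in libraries labelled Mtgr1-/- (log2 0.06, 95% interval -0.31 to 0.44). At day 1 it was at 3001, 2743 and 2958 against 1619, 1177 and 1686, 1.96-fold lower (log2 -0.97, SE 0.14, adjusted p = 0.000954, limma). At day 3 it was at 3775, 4168 and 3791 against 2625, 1519 and 2763, 1.76-fold lower (log2 -0.81, SE 0.21, adjusted p = 0.0103, limma). Enteroids of the groups did not overlap at either time. Kcnq1ot1, the antisense transcript within Kcnq1, was lower at all times (log2 -1.42, -1.20 and -2.29, adjusted p = 0.0237, 0.00975 and 0.000608, limma) at means of at most 152.2 normalized counts, so in crypts it fell where Kcnq1 did not pass.

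Stem cell, Paneth cell and proliferation markers moved in the direction of Slc12a2, Kcne3 and Kcnq1 in enteroids. So did markers of goblet cells (5 of 5 tested lower), enteroendocrine cells (6 of 6) and tuft cells (3 of 4), each at day 1 and at day 3. In crypts 1 of 5 tuft cell markers passed as higher and 0 as lower. All 5 stem cell markers (Lgr5, Olfm4, Ascl2, Smoc2 and Axin2) and all 3 proliferation markers were lower at day 1 and at day 3. Summed stem cell markers were at 24090.2 to 51056.2 in WT against 754 to 984 at day 1, and 81386.2 to 98842.4 against 1064.8 to 1964.9 at day 3. In crypts they were at 29023.0 to 37318.4 against 2692.4 to 5159.2, with 1 of 5 passing as lower. Most of the WT crypt sum was Olfm4, and the crypt ranges of the other 4 overlapped, as for Lgr5 at 230 to 296 against 211 to 562. All 6 Paneth cell markers were lower at day 1 (sums 62531.8 to 72286.4 in WT against 748 to 6600.9) and at day 3 (90204.0 to 124317 against 1749.9 to 8757.9), while in crypts none passed (125291 to 162012 against 1350.8 to 44012.0). Proliferation markers, 29526.0 to 30143.3 against 9939.6 to 16317.8 at day 1 and 30680.1 to 33625.5 against 11718.6 to 19470.7 at day 3, spanned 16007.4 to 19327.1 against 12896.1 to 17231.6 in crypts, with none passing. The part of these cells in the differences of the 3 genes was not tested.

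Cftr, the chloride and bicarbonate channel of the apical membrane, did not follow the rest of the secretory set. In crypts it was at 6014, 5464 and 5735 normalized counts in WT and 9295, 8816 and 8182 in libraries labelled Mtgr1-/-, 1.53-fold higher without overlap (log2 0.61, SE 0.091, adjusted p = 0.0147, limma). This call was lost without WT mouse 1 (log2 0.64, adjusted p = 0.076), WT mouse 2 (0.58 and 0.0811) or mouse 1 labelled Mtgr1-/- (0.57 and 0.0612), and in edgeR on recovered reads (0.57 and 0.11). In enteroids the groups overlapped. Day 1 values were 5475, 5228 and 5748 against 5806, 5332 and 5305, with a 95% interval of -0.19 to 0.19 on the log2 scale (adjusted p = 0.994, limma). Day 3 values were 6972, 6154 and 6577 against 6184, 5683 and 6967, with an interval of -0.29 to 0.15 (adjusted p = 0.564, limma). After quantile normalization Cftr passed as lower at both times, by log2 -0.32 (adjusted p = 0.0067) and -0.34 (adjusted p = 0.0259).

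Kcnk6, which encodes the potassium channel TWIK2, was the only one of the 9 genes whose difference passed in both directions. It was the lowest of the 9 in level. In crypts it was at 401, 333 and 363 in WT and 58.4, 71.3 and 87.4 in libraries labelled Mtgr1-/-, 5.04-fold lower (log2 -2.33, SE 0.19, adjusted p = 0.00166, limma). At day 1 it was at 354, 308 and 322 against 206, 168 and 174, 1.79-fold lower (log2 -0.84, SE 0.14, adjusted p = 0.00161, limma). At day 3 the order was the opposite, with 185, 179 and 218 in WT against 331, 323 and 313 in the others, 1.67-fold higher (log2 0.74, SE 0.12, adjusted p = 0.00149, limma). The groups did not overlap at any of the 3 times. Markers of goblet cells (5 of 5 tested) and of enteroendocrine cells (6 of 6) were lower at all 3 times as well, including day 3, where Kcnk6 was higher. In crypts, goblet markers summed to 116515.3 to 137948.2 in WT against 3880.4 to 6208.2, and enteroendocrine markers to 6907.0 to 11972.7 against 176 to 314. Their part in the Kcnk6 difference was not tested. The Kcnk6 calls held in all 16 alternatives at each time.

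**Figure D2:**
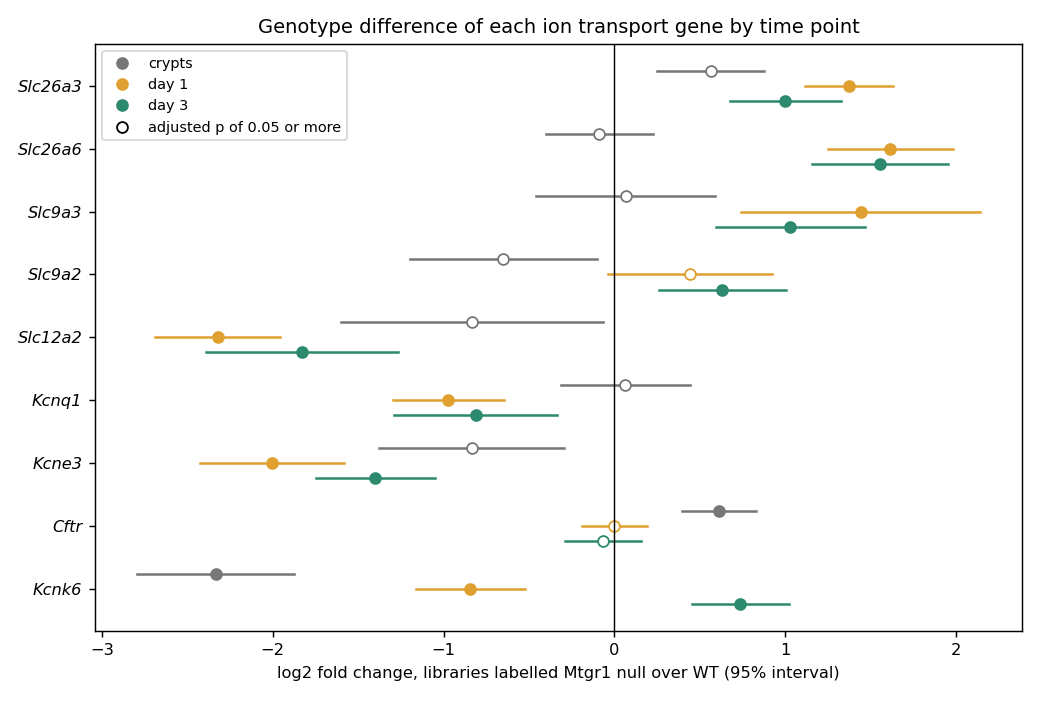
Log2 fold change of each ion transport gene, libraries labelled Mtgr1 null over WT (horizontal axis), in crypts, at day 1 and at day 3. Points are limma estimates, bars their 95% intervals, and open points had an adjusted p of 0.05 or more. Slc26a3, Slc26a6, Slc9a3 and Slc9a2 lie to the right in enteroids, Slc12a2, Kcnq1 and Kcne3 to the left, and Kcnk6 runs from -2.33 through -0.84 to 0.74.

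Whether the genotype difference itself changed between times was tested with limma over all 18 libraries. These contrasts share libraries with each other and with the comparisons at single times. Between crypts and day 1 the difference of all 9 genes changed, beside 41.4% of 12145 genes (20.3% upward, 21.1% downward), by log2 values from -1.49 (Slc12a2) to 1.70 (Slc26a6). Between crypts and day 3 it changed for 5 of 9, beside 31.6% (16.5% upward, 15.1% downward), namely Cftr (-0.68), Slc26a6 (1.64), Slc9a2 (1.28), Kcnq1 (-0.88) and Kcnk6 (3.07). Without WT mouse 1 or WT mouse 2 it passed for 3, with Slc9a2 and Kcnq1 lost. Between day 1 and day 3 it changed for 1 of 9, Kcnk6 (1.58, SE 0.20, adjusted p = 0.0127, limma), beside 0.0329%, which is 4 genes (0.0247% upward, 0.00823% downward). That call was lost without WT mouse 1, 2 or 3 (adjusted p = 0.292, 0.0552 and 0.0741) or without mouse 3 labelled Mtgr1-/- (0.0571), while the value lay between 1.49 and 1.68 in all 10 alternatives. Without mouse 2 labelled Mtgr1-/-, Slc26a3 (-0.62) and Slc9a3 (-0.97) passed as well.

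The courses of single mice were set on a common scale by rescaling the 18 libraries to 10353 shared genes, as a description with no test. In WT, Slc12a2 was higher at day 1 than in crypts in 3 of 3 mice, by a mean log2 of 1.44 ± 0.064 (SD, n = 3), whereas in mice labelled Mtgr1-/- it was higher in 2 of 3 (-0.04 ± 0.62). Slc26a6 was lower at day 1 in all 3 WT mice (-1.55 ± 0.18) and higher in all 3 of the others (0.16 ± 0.18). The gap between the genotypes in Slc12a2, whose crypt groups lay apart without passing the test, thus widened over the first day of culture. A gap opened in Slc26a6, whose crypt groups overlapped. Slc9a3 was lower at day 1 in all 6 mice, by -2.14 ± 0.058 in WT and -0.75 ± 0.88 in the others. Kcnq1 and Kcne3 were higher at day 1 in all 3 WT mice (0.34 ± 0.11 and 0.49 ± 0.030) and lower in all 3 labelled Mtgr1-/- (-0.68 ± 0.55 and -0.67 ± 0.094). Cftr was lower at day 1 in all 6 mice, by -0.23 ± 0.065 in WT and -0.83 ± 0.039 in the others, after which their levels overlapped.

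Kcnk6 ran in opposite directions. On this scale, WT mouse 1 went from 435 in crypts to 343 at day 1 and 173 at day 3, mouse 2 from 363 to 305 and 168, and mouse 3 from 404 to 316 and 202. Of the mice labelled Mtgr1-/-, mouse 1 went from 63.5 to 200.4 and 310.0, mouse 2 from 76.5 to 164 and 301, and mouse 3 from 95.4 to 170.0 and 294. Each WT mouse was lower at each later time and each of the others higher.

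**Figure D3:**
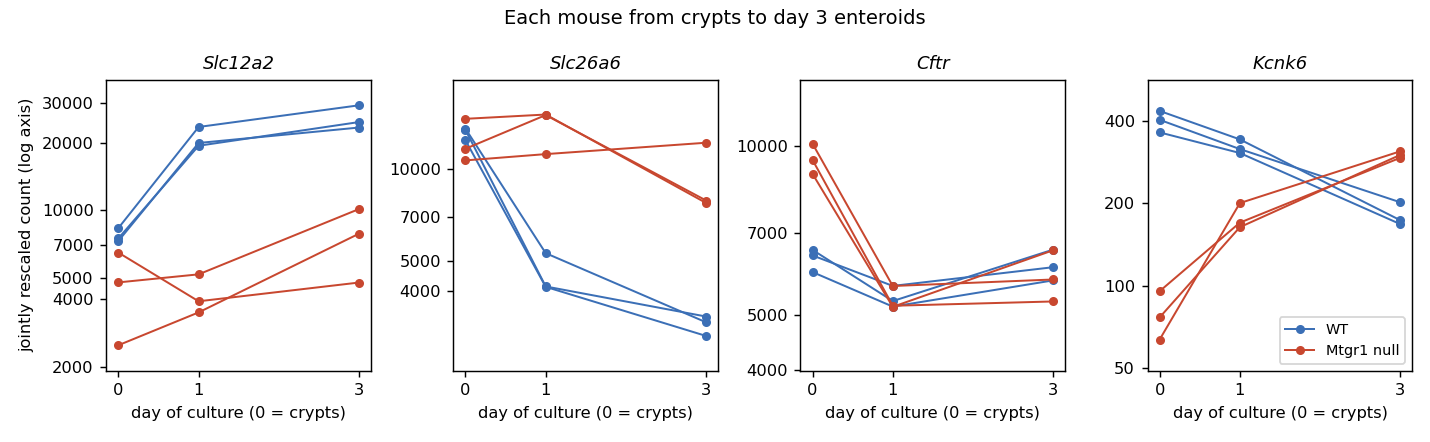
Jointly rescaled counts (vertical axis, log scale, different for each gene) of Slc12a2, Slc26a6, Cftr and Kcnk6 by day of culture, with day 0 for crypts. Each line is 1 mouse. Slc12a2 lines of the genotypes are apart at day 0 and further apart at day 1, Slc26a6 is lower at each later day in WT lines, Cftr lines meet at day 1, and Kcnk6 lines cross between day 1 and day 3.

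Levels were compared between genes as normalized counts per kilobase of the longest coding transcript. In WT crypts Slc26a6 led (4994.8 ± 232, SD, n = 3), followed by Slc9a3 (3289.2 ± 791). Then came Slc26a3 (1535.8) and Kcne3 (1423.1), whose ranges overlapped, Slc12a2 (1076.1), Cftr (910.3), Kcnq1 (674) and Slc9a2 (662), which overlapped as well, and Kcnk6 (89.4). Absorptive exchangers thus held the first 3 places in WT crypts. In WT enteroids the order was another, led by Slc12a2 (3281.5 ± 386) and Kcne3 (2237.6 ± 193) at day 1, and by Slc12a2 (4240.3 ± 502) and Kcne3 (2629.4 ± 64.3) at day 3. Slc26a6 followed at 1924.6 and 1381.7, overlapping with Kcne3 at day 1 and with Kcnq1 at day 3. Summed enterocyte markers were at 661661 to 818560.8 normalized counts in WT crypts. In WT enteroids they were at 394902 to 513247.6 at day 1 and 327428.4 to 358777.1 at day 3, each time being normalized separately. The part of enterocytes in these orders, and in the courses of WT mice, was not tested.

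Libraries labelled Mtgr1-/- kept Slc26a6 first at all 3 times, at 4735.3 ± 751, 5899.0 ± 960.5 and 4141.5 ± 1146.8 per kilobase, with Slc26a3 and Slc9a3 in the next 2 places. In crypts Slc26a6 overlapped with Slc9a3, at day 1 Slc26a3 overlapped with Slc9a3, and at day 3 Slc9a3 overlapped with Slc12a2. Within a library, the ratio of Slc26a6 to Slc12a2 per kilobase was 4.43, 4.64 and 4.88 in WT crypts and 6.65, 4.49 and 15.9 in crypts labelled Mtgr1-/-. The crypt groups overlapped. At day 1 it was 0.614, 0.561 and 0.579 in WT against 7.90, 7.76 and 11.7 in the others, and at day 3 it was 0.292, 0.331 and 0.362 against 2.12, 6.97 and 2.68. In enteroids Slc12a2 exceeded Slc26a6 in all 6 WT libraries and Slc26a6 exceeded Slc12a2 in all 6 labelled Mtgr1-/-. The ratio of Slc26a3 to Cftr was 1.48 to 1.93 in WT crypts and 1.43 to 2.00 in the others, 1.12 to 1.42 against 3.09 to 3.85 at day 1 and 0.909 to 1.03 against 1.74 to 2.86 at day 3.

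Other genes of ion and water transport were taken from 6 lists of 164 symbols in all, which do not hold the 9 genes. In crypts, 0 of 102 tested passed as higher and 9 as lower, Scnn1a, Slc4a5, Slc12a8, Clca1, Ttyh1, Kcnma1, Kcnk10, Fxyd6 and Aqp4. At day 1, 49 of 96 passed as higher and 20 as lower, and at day 3, 48 of 97 and 19, to be read against the shares over all genes given above. The median log2 fold change of the lists together was 0.46 at day 1 and 0.36 at day 3, against -0.01 and 0.00 over all genes. The lists were chosen with earlier results of these data known, so nothing about ion transport genes as a class is drawn from this. Sodium and bicarbonate transporters passed as higher in 8 of 12 at each enteroid time and as lower in 0. Examples at day 1 were the sulfate transporters Slc13a1 (log2 2.10) and Slc26a2 (1.69) and the sodium bicarbonate cotransporter Slc4a7 (1.57).

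Potassium channels and their subunits passed as lower in 7 of 11 and as higher in 2 at day 1, and in 6 of 10 and 2 at day 3. Of those lower at day 1, Kcnh3, Kcnma1 and Kcnh2 had means of 33.2, 36.4 and 23.5 in WT against 1.32, 0.37 and 2.12. They were among those lower at day 3 too. Kcna1, higher at day 1, was at 2.71 against 17.8. Here and in the other lists, such genes passed the filter only through the group where they were high, which fixed their direction, so the counts are no result about the lists. Among the potassium channels Kcnn4, the calcium-activated potassium channel of epithelia, was lower at day 1 (log2 -0.57, adjusted p = 0.00219, limma). Genes of the family of Kcnk6 split. Kcnk5 was higher at both times (0.98 and 0.72), Kcnk1 was lower at both (-0.51 and -0.33), and Kcnk10 did not pass at either (-0.12 and 0.06). Chloride channels and cotransporters split. At day 1, 15 of 24 were higher and 4 lower, and the counts for day 3 were 14 and 3. Clcn2, a chloride channel, was higher (1.5 and 1.22), Slc12a8, a relative of Slc12a2, was lower (-1.47 and -1.28), and Clca1, a secreted goblet cell product, was lower (-3.95 and -2.29). Clca genes have near-identical copies, so their reads may be shared.

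Sodium pump genes passed in 4 of 6 at day 1, 2 in each direction, and in 5 of 7 at day 3, 3 higher and 2 lower. Atp1b1, a beta subunit gene, was higher by log2 0.77 at day 1 and 0.56 at day 3, while Atp1b3, another, was lower (-0.41 and -0.35). Among scaffolds and regulators, 18 of 37 were higher and 5 lower at day 1, and 18 of 38 and 5 at day 3. Car2 and Car4, carbonic anhydrases that supply bicarbonate, were higher at day 1 (2.37 and 3.04), while Car12, another of them, was lower (-2.66). The kinase gene Wnk2 was lower at both times (-1.18 and -1.55). All 6 aquaporins tested passed at each time, 4 higher and 2 lower at day 1 and 3 each at day 3. Aqp4 (-4.63 and -5.09) and Aqp1 (-2.17 and -2.58) were lower and Aqp7 was higher (4.25 and 4.26). Mean counts of Aqp7 were 20.8 in WT against 463 at day 1 and 8.66 against 176 at day 3. At day 3, Aqp7 and Aqp3 (7.99 against 66.8) passed the filter only through the libraries labelled Mtgr1-/-, so their direction was fixed.

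**Figure D4:**
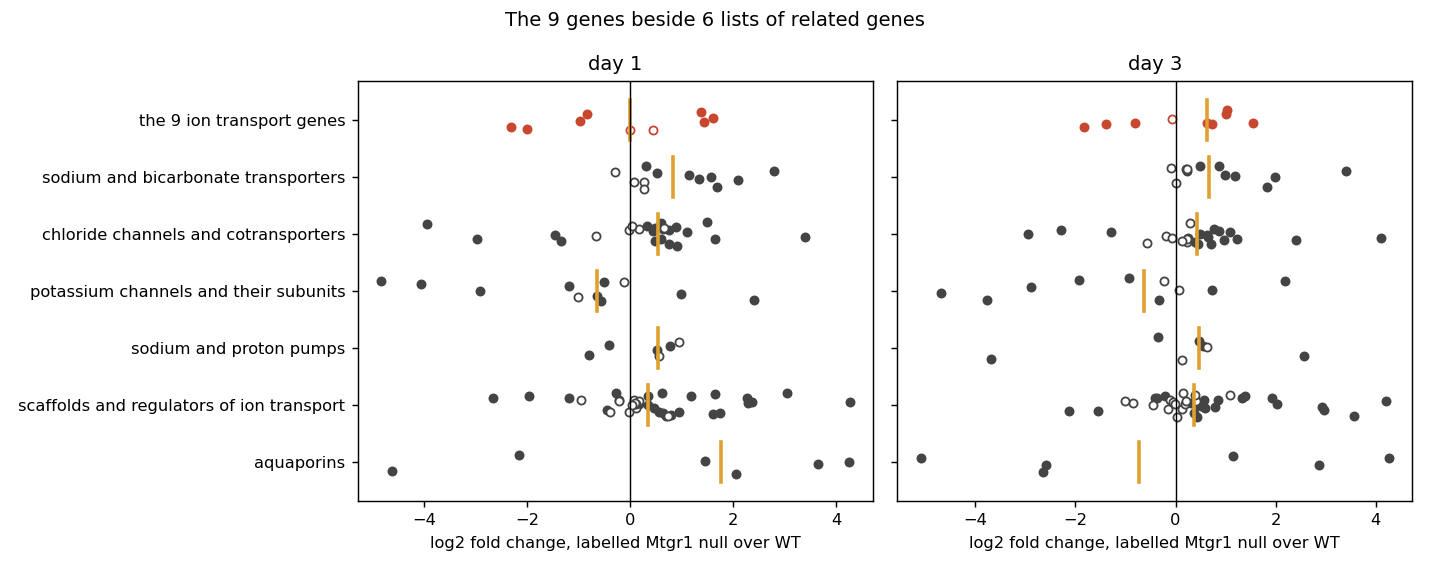
Log2 fold changes, libraries labelled Mtgr1 null over WT (horizontal axis), of the 9 ion transport genes (top) and of the tested genes of 6 related lists in day 1 enteroids on the left and day 3 enteroids on the right. Each point is 1 gene, filled where the adjusted p was below 0.05, and vertical bars are medians. No sodium and bicarbonate transporter passed as lower. Most potassium channels lie to the left, some of them at low counts, and the 9 genes lie on both sides.

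Across the 18 libraries, with the mean of each time removed, the 9 genes fell into opposing sets, given as a description. All points share the genotype difference, so such values largely restate it. Slc12a2 and Kcne3 had a Pearson r of 0.977 (n = 18 libraries) and Slc26a3 and Slc26a6 one of 0.918, while Slc12a2 and Slc26a3 were at -0.962. Cftr and Kcnk6 were at -0.841, and the next in size for each was Slc9a2, at -0.49 with Cftr and 0.48 with Kcnk6. Of 12144 other genes, the most alike were Acer2 (0.981), Prps2 and Rfc1 for Slc12a2, Zdhhc2 (0.989), Ephb3 and Rfwd3 for Kcne3, and Dmpk (0.955), Oip5 and Auts2 for Kcnq1. They were Dpep1 (0.991), Thnsl2 and Mov10 for Slc26a3, Gal3st2 (0.990), Cyp3a13 and Jak2 for Slc26a6, Tbk1 (0.949), Etv3 and Tut7 for Slc9a3, and Pnp2 (0.945), Ap3s1 and Pnp for Slc9a2. For Kcnk6 they were Hgfac (0.961), Bace2 and Cd63.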

How the data were processed

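RNA was sequenced from 18 bulk libraries, 3 WT and 3 labelled Mtgr1-/- mice at 3 times. The authors made stranded mRNA libraries, sequenced single reads of 50 bases, trimmed them with fastp 0.20.0, quantified them with Salmon 1.3.0 against GENCODE M21 and normalized gene counts with DESeq2 1.26.0. The deposited signal of each library is a count divided by 1 factor per library, within the table of each time. The authors also deposited a mean signal and their own comparisons, with log2 fold changes and standard errors, a Wald statistic (score) and p-values, none of which was used.

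Within each table, testing covered genes whose mean was 10 or more, on log2(normalized count + 1), which understates the change of low genes, with limma 3.58.1 in R 4.3.3 (trend, two-sided, Benjamini-Hochberg over all genes, threshold 0.05). An exact permutation test of 1 gene, 3 against 3, cannot go below 0.1. Changes of the genotype difference were fitted over all libraries, libraries of a mouse being allowed to correlate (estimated at -0.0048). Members and lists were chosen with earlier results of these data known. Named genes were the 9 members, the targeted gene, up to 3 rises and 3 falls per list and enteroid time among called genes of mean 50 or more without overlap, and the 3 genes most correlated with each member past the threshold in enteroids. The 9 list genes lower in crypts, Kcnq1ot1, Kcnh3, Kcnh2, Kcna1, Cd74, Ptprc, Cd3e, Sis and the stem cell markers given singly were named after their values were seen. Same-numbered mice are not said to share a litter or day. Their deviations correlated at 0.116, 0.231 and 0.216 at day 1, each over 0.1, and at -0.0067, -0.0023 and -0.016 at day 3. In crypts they correlated at 0.0764, 0.274 and 0.346. There WT mouse 1 was closer to a labelled Mtgr1-/- mouse of another number (0.201). All 3 pairs were over 0.1 at day 1 only, as read from the data, and whether the numbers pair crypts is not settled by these values. Reads were recovered from the steps between values, and 100% of values were whole within 0.001. In WT crypt 2 and day 3 mouse 2 labelled Mtgr1-/- the step lay too close to 1, and these 2 did not enter the edgeR 4.0.16 and DESeq2 1.42.0 fits of reads. Alternatives were each library left out, pseudocounts of 0.1 and 8, no filter, TMM and quantile scaling, array weights, the block, Xist as a covariate, and, for changes between times, no mouse effect and a filter over all libraries. The steps were tested on simulated data. The numbers rest on the spread between 3 mice, and passaged enteroids were not analysed here.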

Additional observations from a re-analysis of the deposited data

Results flagged for a closer look

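The genotype difference was taken as labelled Mtgr1-/- minus WT on the log2 scale. It was itself different between times in 15 of 27 tests of the 9 genes (limma, adjusted p below 0.05 over all genes). These tests share libraries and are not independent. Over all genes, 41.4% changed from crypts to day 1 and 31.6% from crypts to day 3. Between day 1 and day 3, 0.0329% did. Nothing particular to the 9 genes is drawn from the count. From crypts to day 1 the genotype difference changed by -0.61 for Cftr, -1.49 for Slc12a2, 0.81 for Slc26a3, 1.70 for Slc26a6, 1.09 for Slc9a2, 1.37 for Slc9a3, -1.04 for Kcnq1, -1.17 for Kcne3 and 1.49 for Kcnk6. From crypts to day 3 it changed by -0.68 for Cftr, 1.64 for Slc26a6, 1.28 for Slc9a2, -0.88 for Kcnq1 and 3.07 for Kcnk6. From day 1 to day 3 it changed by 1.58 for Kcnk6. The changes of Slc9a2 and Slc9a3 from crypts to day 1 lost their call without WT mouse 2 (adjusted p = 0.107 and 0.0558, limma) and without mouse 3 labelled Mtgr1-/- (0.0707 and 0.0843), and that of Slc9a3 also without mouse 1 labelled Mtgr1-/- (0.0705). The change of Kcnq1 from crypts to day 3 lost it without WT mouse 1, 2 or 3 (0.0945, 0.126 and 0.0652), and that of Slc9a2 without WT mouse 1 or 2 (0.053 and 0.0677).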

How the results depend on the processing

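Of 702 values of the 9 genes under alternatives, 649 kept their direction and side of the threshold, 18 lost a call, 18 gained one and 17 changed sign, none of them past the threshold. The calls of Slc12a2, Slc26a3, Slc26a6, Slc9a3, Kcnq1, Kcne3 and Kcnk6 at day 1 and at day 3, and that of Slc9a2 at day 3, held in all 16 alternatives. Crypts were less stable. There 614 genes passed, 175 to 605 with 1 library left out (175 without WT 1, 213 without WT 2, 312 and 375 without mouse 1 or 3 labelled Mtgr1-/-), 2100 with array weights, 209 in edgeR and 1200 in DESeq2 on recovered reads. Of the 9 genes, 2 passed there, 1 to 3 with 1 library left out, 6 with array weights and 1 in edgeR. For the change from crypts to day 3, 5 passed, 3 to 7 with 1 mouse left out, and for that from day 1 to day 3, 1 passed, 0 to 3 with 1 left out. Signs changed with array weights for Slc9a3 in crypts (-0.35) and Cftr at day 1 (0.059) and day 3 (0.069), with Xist as a covariate for Cftr at day 1 (0.00088) and in DESeq2 for Cftr at day 3 (0.00083). The cause was not tested. With 1 library left out, crypt values spanned -0.10 to 0.24 for Slc9a3, -0.21 to 0.0014 for Slc26a6 and -0.071 to 0.23 for Kcnq1, those of Cftr -0.043 to 0.034 at day 1 and -0.15 to 0.0010 at day 3, and changes from day 1 to day 3 -0.42 to 0.13 for Slc26a6 and -0.22 to 0.46 for Slc9a2.

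With the replicate block, 562, 8027 and 7289 genes passed in crypts, at day 1 and at day 3, against 614, 7413 and 7545 without it, and Kcne3 in crypts and Slc9a2 at day 1 gained a call; the block changed no other call of the 9 genes. The lowest value of the 9 genes in any library was 58.4 normalized counts.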
